A study of Mus musculus with 16 samples.

Results

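The H3K27ac response of macrophages to interferon gamma (IFNγ) was compared in the absence and in the presence of PJ34, over the 21468 regions that carried a peak in all 4 deposited peak lists, out of 55218 regions obtained by merging peaks that overlapped by at least 1 bp (38.9%). Each region received the best score percentile of its peaks in each list, and the IFNγ response was the percentile in IFNγ minus that in Control without PJ34, and the percentile in IFNγ+PJ34 minus that in PJ34 with it. A percentile of 90 means that 90% of the peaks of that list had a lower or an equal score, counting ties at their middle, so that each value is a place in the order of its own list and not an amount of H3K27ac. The 2 responses share no list.

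The cells were bone marrow-derived macrophages (BMDMs) grown in culture from C57Bl6 mice of 8 to 12 weeks of age, with no genetic change named in the labels. Control cells received no agent, IFNγ cells received 100 ng/mL IFNγ for 1 h, PJ34 cells received 20 µM PJ34, and IFNγ+PJ34 cells received 20 µM PJ34 1 h before 100 ng/mL IFNγ for 1 h. The labels give no exposure time for PJ34 alone, and no vehicle is named for Control. Each condition had 2 ChIP samples with 2 input samples, 8 ChIP and 8 input samples in all, but each list was made from both replicates, so there is no replicate error, no test was possible and no p-value is given. The read depth of the samples was not in the files, and intervals are exact Clopper-Pearson 95% intervals that cover counting error only and treat regions as independent.

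IFNγ binds a receptor on the macrophage surface that activates the kinases JAK1 and JAK2. GAS elements, short palindromic DNA sequences, stand at many IFNγ-responsive sites, and the acetyltransferases p300 and CBP acetylate histone H3 at lysine 27, the mark H3K27ac of active promoters and enhancers. PJ34 inhibits PARP-1 and related enzymes, which attach ADP-ribose to proteins, histones and other chromatin proteins among them. The comparison addresses whether the sites that gain H3K27ac after IFNγ are the sites that gain it when these enzymes are inhibited.

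The elements below lie at 8 regions, shown because they are sites where the responses without and with PJ34 agree or part, and because the GAS element is the sequence feature that the classes are compared on further on. They were chosen after their values had been seen. Each line gives 61 bases of the plus strand of mm10 (GRCm38), and the capitals mark the match to TTCNNNGAA nearest to the region's highest summit.

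Tgtp2 start site, chr11:49064259-49064319: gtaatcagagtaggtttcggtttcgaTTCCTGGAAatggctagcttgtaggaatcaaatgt
Gbp5 start site, chr3:142496663-142496723: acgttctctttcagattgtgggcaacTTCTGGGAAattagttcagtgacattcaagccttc
Ccl12 upstream, chr11:82087637-82087697: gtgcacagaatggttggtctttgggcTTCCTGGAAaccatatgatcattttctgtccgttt
Ciita intron, chr16:10486491-10486551: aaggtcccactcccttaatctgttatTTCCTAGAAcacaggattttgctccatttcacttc
Samhd1 upstream, chr2:157138904-157138964: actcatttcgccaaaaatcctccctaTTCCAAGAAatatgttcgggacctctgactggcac
Maff start site, chr15:79347521-79347581: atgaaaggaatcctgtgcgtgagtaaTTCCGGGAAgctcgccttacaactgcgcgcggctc
Serpinb1b intron, chr13:33090563-33090623: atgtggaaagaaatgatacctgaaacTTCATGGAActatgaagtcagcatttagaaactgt
Irf2 intron, chr8:46778476-46778536: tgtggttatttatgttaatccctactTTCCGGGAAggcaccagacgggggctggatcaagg

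The first 5 lie in regions that moved up by at least 10 percentile points in both responses, Maff rose only without PJ34, Serpinb1b rose without PJ34 and fell with it, and Irf2 rose only with PJ34. The Tgtp2, Ccl12, Maff and Irf2 elements also match the stricter TTCCNGGAA. The regions were picked by class from those that held an element, so its presence in every one of these classes was set by the choice.

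Across all common regions, the 2 responses were almost unrelated. The median IFNγ minus Control difference was -2.25 percentile points, with quartiles of -11.3 and 3.05 and an SD over regions of 16.9. The median IFNγ+PJ34 minus PJ34 difference was -3.06, with quartiles of -13.1 and 6.24 and an SD of 20.4. Set against each other over the 21468 regions, they gave a Pearson r of 0.024 and a Spearman rho of 0.015, as a description in which all points share the same 4 lists. The correlation was 0.051 over the 9886 regions with a summit within 1 kb of a start site (promoters) and 0.027 over the 11582 others (distal regions). Over the 446 regions with TTCCNGGAA within 250 bp of the summit it was 0.232, and over the 2960 with TTCNNNGAA it was 0.077. The log2 ratios of the authors' fold enrichments, which do not depend on ranks, gave an r of 0.040 between the responses.

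**Figure D1:**
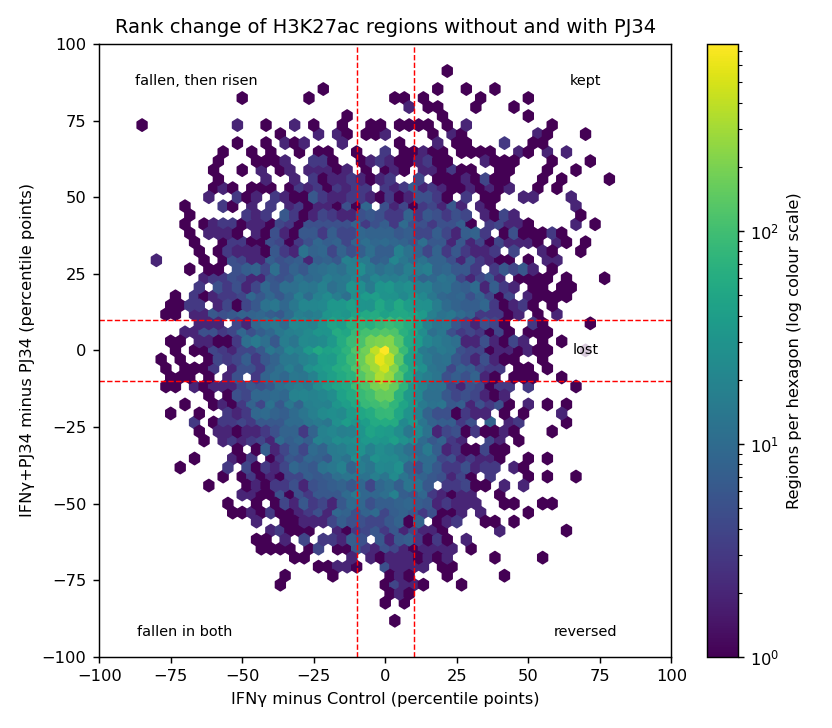
Each hexagon counts regions by their IFNγ minus Control difference (x axis, percentile points) and their IFNγ+PJ34 minus PJ34 difference (y axis, percentile points), with dashed lines at 10 points on either side of 0. The cloud has no visible slope (r = 0.024 over 21468 regions), and regions fill all 4 corners.

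The lists themselves were ordered alike to different degrees. Over the common regions the percentiles of Control and PJ34 correlated at r = 0.811, those of IFNγ and PJ34 at 0.808, and those of Control and IFNγ at 0.733. The pair PJ34 and IFNγ+PJ34, from which the response with PJ34 is taken, had the lowest correlation of all pairs, 0.624. The PJ34 list therefore stood about as near to the IFNγ list as to Control, and its distance from IFNγ+PJ34 enters every difference with PJ34 below. Whether this reflects the treatments or the libraries cannot be told apart with 1 list per condition. The labelled cell type was met by its markers: 10 of 10 macrophage marker genes had a peak over the start site in all 4 lists, against 0 of 6 T cell, 0 of 6 neutrophil and precursor, 0 of 4 fibroblast and 0 of 4 epithelial genes, 1 of 5 B cell, 2 of 3 endothelial and 1 of 3 erythroid genes.

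A region was said to rise when its percentile moved up by 10 points or more, to fall when it moved down by 10 or more, and to change little otherwise. Without PJ34, 2568 regions rose (12.0% of all common regions) and 5887 fell (27.4%). With PJ34, 4214 rose (19.6%) and 6670 fell (31.1%). The larger number of falls without PJ34 depended on ranking against all peaks of a list. Ranked among the common regions alone, 4806 rose and 5015 fell without PJ34, with a median difference of -0.208 points. Of the 2568 regions that rose with IFNγ, 1092 also rose with IFNγ in the presence of PJ34 and are called kept, 674 changed little and are called lost, and 802 fell and are called reversed. The kept share was 42.5% (95% interval 40.6 to 44.5%), above the 19.6% of all common regions that rose with PJ34. The lost share was 26.2% (24.6 to 28.0%), below the 49.3% of all common regions that changed little with PJ34. The reversed share of 31.2% (29.4 to 33.1%) took in the 31.1% of all common regions that fell with PJ34.

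Part of these differences from all regions went with where the risen regions started, since most of them were low in Control. Of the 491 risen regions under the 25th Control percentile 45.6% were kept, beside 40.4% of all regions of that range that rose with PJ34. The pair of shares was 42.2% and 33.3% from the 25th to the 50th percentile, 41.5% and 25.4% from the 50th to the 75th, and 41.2% and 10.7% above the 75th, where 187 regions had risen. The kept share thus stood above that of all regions in each range, by few points in the lowest. There the 491 risen regions were themselves 69.65% of the 705 regions they are set beside. This overlap draws the paired kept, lost and reversed shares together, most of all in that range. Lost regions and all regions that changed little with PJ34 were closer within the lower 3 ranges, at 19.1% and 22.1%, 24.2% and 26.3%, and 27.9% and 33.4%, and lay apart in the highest, at 47.1% and 68.2%. Reversed regions were fewer in share than all regions that fell with PJ34 in every range, from 35.2% and 37.5% in the lowest through 33.6% and 40.4% and 30.7% and 41.2% to 11.8% and 21.1% in the highest.

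The regions that fell without PJ34 were set against the same background. Of the 5887, 2022 also fell with PJ34, or 34.3% (33.1 to 35.6%), beside the background of 31.1%. This order turned with the ranking: among the common regions alone 26.0% of falls were kept, beside 31.8% of all regions. Another 1592, or 27.04% (25.9 to 28.2%), fell without PJ34 and rose with it, more than the 19.6% of all regions that rose with PJ34. This too varied with the starting score. Under the 25th Control percentile 9 of 37 falls, or 24.3%, rose with PJ34, beside 40.4% of all regions there. The pair of shares was 29.5% and 33.3% from the 25th to the 50th percentile, 28.0% and 25.4% up to the 75th, and 24.5% and 10.7% above it. Of the 13013 regions that changed little without PJ34, 1530 rose with PJ34 alone. Just inside the limit of 10 points lay a region nearest to Mul1, at 10.002 points, and just outside it a region nearest to Slc28a2, at 9.9958 points, so that the classes divide a continuous range.

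The share that was kept grew with the size of the rise. Among 1408 regions that rose by 10 to 20 points, 35.7% (33.2 to 38.3%) were kept. This share was 46.9% of 593 regions at 20 to 30 points, 49.3% of 300 at 30 to 40 points, and 61.0% (54.9 to 66.9%) of 267 at 40 points or more. The reversed share went from 34.7% in the smallest rises to 24.0% in the largest. Among the largest rises 64 regions fell with PJ34, a lower share than the 31.1% of all common regions that fell with it. Of all regions under the 25th Control percentile 37.5% fell with PJ34.

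**Figure D2:**
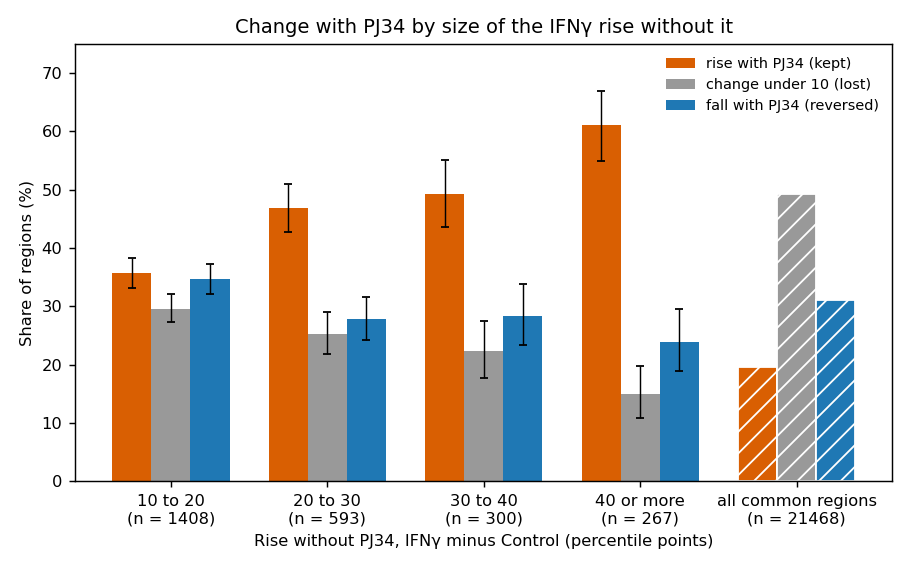
Bars give the share of regions (y axis, %) that rose, changed little or fell with PJ34, by the size of their rise without PJ34 (x axis, percentile points), and hatched bars give the shares of all 21468 common regions. Error bars are exact 95% intervals, and the kept share runs from 35.7% at the smallest rises to 61.0% at the largest.

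Rises were mostly distal. Of the 9886 promoters 399 rose without PJ34 (4.04%), against 2169 of the 11582 distal regions (18.7%). Regions high in Control had little room to move up by 10 points. Of those above the 75th Control percentile 1.77% rose, against 69.65% of those under the 25th. Promoters made up 71.7% of the regions that changed little in both responses, whose median Control percentile was 88.85. Promoters and distal regions were not compared at equal Control percentiles. Kept promoters were fewer in share, 115 of 399 or 28.8% (24.4 to 33.5%), but the background was far lower there, with 6.06% of all promoters rising with PJ34. Among distal regions 977 of 2169 were kept, 45.04% (42.9 to 47.2%), beside 31.2% of all distal regions. Distal regions were also divided into 4 sets of near equal size by their mean percentile over the 4 lists. The kept share of distal rises went from 37.1% in the lowest set to 58.3% (52.6 to 63.9%) in the highest, while the share of all distal regions that rose with PJ34 was 32.0% and 26.4% there. In the lowest set the kept share thus exceeded the background by few points. The reversed share of distal rises went the other way, from 44.5% in the lowest set to 6.73% in the highest. The share of all distal regions that fell with PJ34 went the same way, from 44.4% to 15.2%. In the lowest set the reversed share was thus at the background. Among low scores, neighbouring values of the whole-number score lay up to 9.99 percentile points apart in the PJ34 list and 8.43 in Control, and at most 0.329 points apart above the 75th percentile, so differences between low-scoring regions are coarse.

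The levels behind the classes differed in both lists with PJ34. In kept regions the median percentile was 45.2 in Control and 71.8 in IFNγ, and 48.6 in PJ34 and 79.4 in IFNγ+PJ34. In lost regions it was 52.1 in Control and 72.6 in IFNγ, but already 66.1 in PJ34 and 65.0 in IFNγ+PJ34. In reversed regions it was 42.8 in Control and 64.5 in IFNγ, then 62.8 in PJ34 and 27.04 in IFNγ+PJ34. Regions that fell without PJ34 and rose with it formed the mirror image, with medians of 66.3 in Control against 38.4 in IFNγ, and 42.5 in PJ34 against 70.1 in IFNγ+PJ34. In the last 2 classes PJ34 stood near IFNγ and away from Control. These medians describe regions that were sorted on the same values, and none of them is a test of an effect of PJ34 alone.

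The GAS element was found more often in kept regions than in lost or reversed ones. TTCNNNGAA, which reads alike on both strands, stood within 250 bp of the summit, a window of 501 bp, in 13.8% of all common regions and in 30.5% (27.8 to 33.3%) of the kept ones. It was found in 22.4% (19.3 to 25.7%) of the lost regions, 18.3% (15.7 to 21.2%) of the reversed regions and 21.05% of those that rose with PJ34 alone. Among distal regions alone, where the base composition of the classes was closer, the shares were 29.7% of kept, 20.98% of lost, 19.8% of reversed and 17.2% of all. The stricter TTCCNGGAA, each match of which is also a match to TTCNNNGAA, was found in 7.23% (5.77 to 8.94%) of kept regions, 3.41% of lost, 2.00% of reversed and 2.08% of all. Of the 118 regions with TTCCNGGAA that rose without PJ34, 79 were kept, or 66.9% (57.7 to 75.3%), beside 39.9% of all regions with this sequence that rose with PJ34. With its ends exchanged, as GAANNNTTC, a sequence of equal base composition was found in 13.1% of kept, 13.9% of lost, 11.7% of reversed and 10.4% of all regions.

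Other motifs were spread differently. The core of the interferon-stimulated response element (ISRE), GAAA, any 2 bases, GAAA, on either strand, is bound by interferon regulatory factors. It was found in 14.5% (12.4 to 16.7%) of kept regions, 15.9% (14.1 to 17.8%) of those that rose with PJ34 alone, 10.8% of lost, 9.601% of reversed and 8.31% of all. The AP-1 site TGANTCA, bound by Fos and Jun proteins, was found in 23.0% (19.9 to 26.4%) of lost and 23.3% (20.4 to 26.4%) of reversed regions, against 17.9% (15.7 to 20.4%) of kept and 13.7% of all. Among distal regions AP-1 sites stood in 25.9% of lost, 25.5% of reversed, 18.6% of kept and 19.9% of all. GGAAGT on either strand, a core sequence of sites for the macrophage factor PU.1, was found in 38.5% of kept and 38.0% of all regions, and the κB site, GGGAA, any base, TTCC on either strand, in 1.28% and 0.647%. A match is a description of these windows and does not show that the factor was bound.

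**Figure D3:**
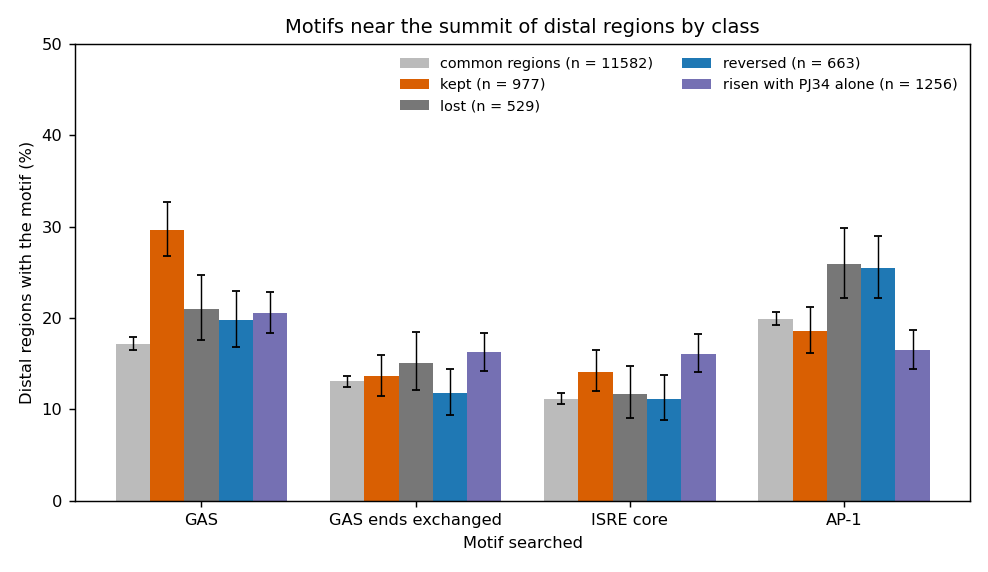
Bars give the share of distal regions (y axis, %) with each motif (x axis) within 250 bp of the summit, by class, with exact 95% intervals. The GAS share is highest in kept regions (29.7%, against 17.2% of all distal regions), and the AP-1 share is highest in lost and reversed regions (25.9% and 25.5%).

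The genes nearest to these regions were then taken by role, from 16 lists of the IFNγ pathway and of macrophage genes. In all, 413 common regions had their summit nearest to the start site of a listed gene; 79 of them rose without PJ34, of which 37 were kept, 23 lost and 19 reversed. The nearest gene is a label of position and does not show that a region acts on it. Since the lists are short, their counts are read beside the background of 12.0% rising without and 19.6% rising with PJ34, and of 27.4% falling without and 31.1% falling with it. Percentiles taken among the common regions alone, in place of all peaks of a list, gave more rises overall (22.4% without and 26.7% with PJ34) and larger counts in most lists.

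Both responses rose at the guanylate-binding proteins (GBPs), IFNγ-induced GTPases that attack the vacuoles of intracellular pathogens. Of 7 common regions, 6 rose without PJ34 and 6 with it, 5 were kept, and the median differences were 16.3 and 15.6 points, against -2.25 and -3.06 over all regions. At the Gbp5 start site (chr3:142494220-142500161) the percentile was 80.2 in Control against 96.5 in IFNγ, and 80.9 in PJ34 against 98.4 in IFNγ+PJ34. A second region upstream of Gbp5 (chr3:142493169-142494177) stood at 58.9 in Control against 84.5 in IFNγ, and 50.8 in PJ34 against 92.0 in IFNγ+PJ34. For Gbp6 the start site stood at 64.6 in Control against 85.4 in IFNγ, and 68.0 in PJ34 against 83.7 in IFNγ+PJ34. At all 6 GBP start sites with a common region (Gbp2, Gbp3, Gbp5, Gbp6, Gbp7 and Gbp9) both IFNγ lists were above both others. Gbp2b, Gbp4, Gbp8 and Gbp10 had no common region nearest to them, and Gbp11 had no match in the annotation.

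Of the 6 regions of the immunity-related GTPases, which act with the GBPs on such vacuoles, 2 rose in both responses and 1 moved in opposite directions. The Tgtp2 start site (chr11:49062020-49064945) stood at 75.9 in Control against 92.0 in IFNγ, and 71.6 in PJ34 against 93.4 in IFNγ+PJ34. An Irgm1 region 14.6 kb from the start site was also kept, with 36.8 in Control against 75.4 in IFNγ, and 52.9 in PJ34 against 72.9 in IFNγ+PJ34. At the Irgm1 start site itself the percentile was 97.8 in Control and 96.5 in PJ34, so that it could not move up by 10 points. A distal Irgm2 region, at 55.9 in Control and 38.2 in PJ34, fell without PJ34 and rose with it (-26.1 and 34.3 points).

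Among the chemokines, 6 of 14 regions rose without PJ34 and 4 of these were kept. Cxcl10, which recruits T cells, had both of its regions kept: its start site (chr5:92349031-92350894) stood at 50.7 in Control against 90.9 in IFNγ, and 70.3 in PJ34 against 95.8 in IFNγ+PJ34. The monocyte attractants Ccl7 and Ccl12 started higher under PJ34. The Ccl7 start site stood at 11.5 in Control against 46.7 in IFNγ, and 56.3 in PJ34 against 79.9 in IFNγ+PJ34. The region 14.1 kb upstream of Ccl12 that holds the element shown above (chr11:82086640-82089382) stood at 26.9 in Control against 78.2 in IFNγ, and 63.8 in PJ34 against 89.9 in IFNγ+PJ34. In both of these regions the PJ34 list was above Control. No chemokine region was reversed, beside 31.2% of all rises, but only 6 had risen, and 1 was reversed when ranked among the common regions. Another 2 of the 14 regions, both nearest to Ccl2, fell without PJ34, and 1 of these rose with it.

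**Figure D4:**
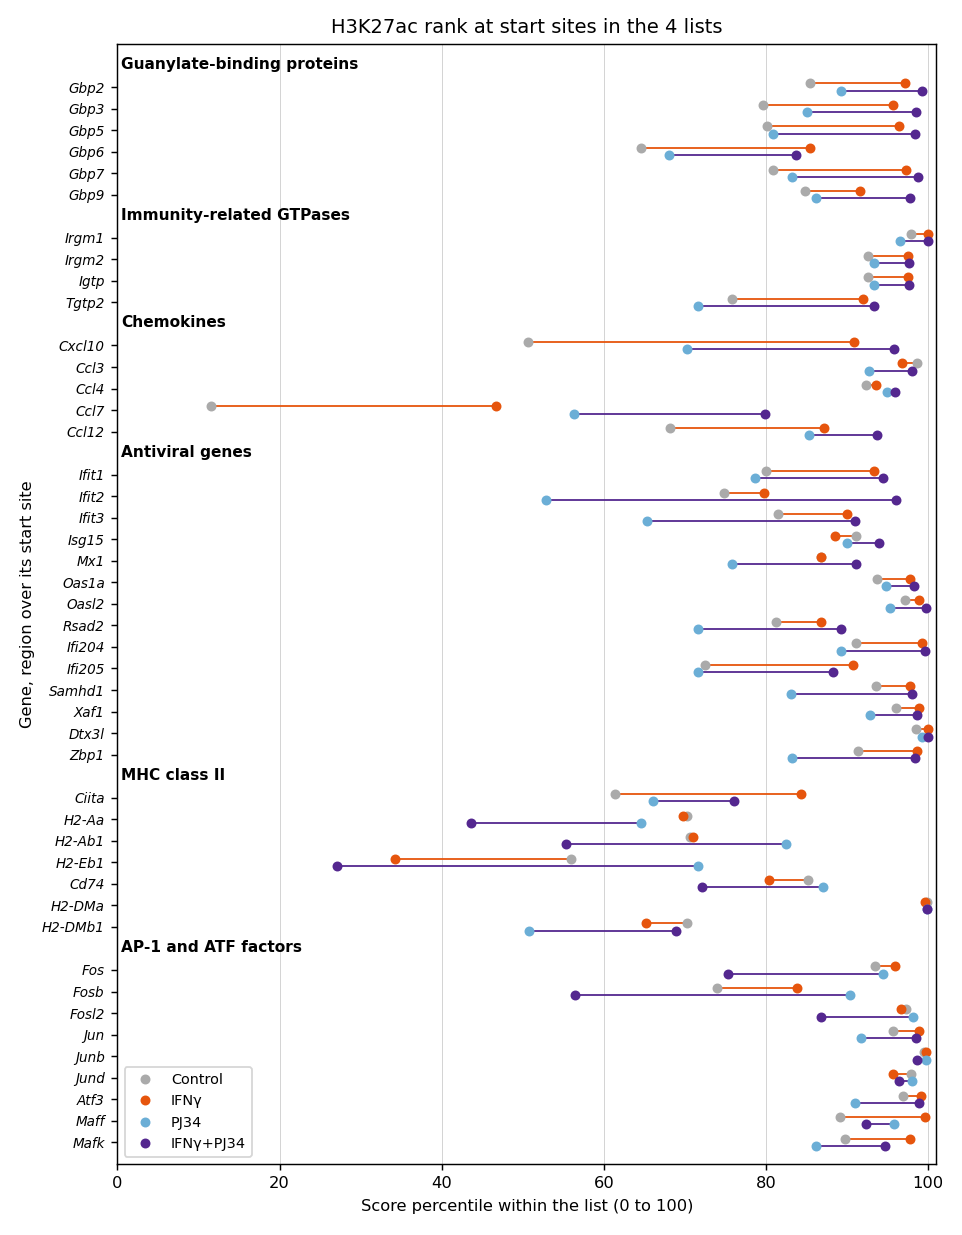
Points give the score percentile (x axis) of the region over the start site of each gene (y axis) in the 4 lists, with a line from Control to IFNγ and one from PJ34 to IFNγ+PJ34. At the 6 GBP genes both lines run to the right, at Ifit2, Ifit3 and Mx1 the PJ34 points lie farthest to the left, and at H2-Aa, H2-Ab1, Fos and Fosb the line with PJ34 runs to the left.

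Near antiviral genes more regions rose with PJ34 than without it, by a margin that moved with the ranking and was not tested. Of 27 regions 8 rose without and 16 with PJ34, 5 were kept, and the medians were 7.16 and 15.2 points. Ranked among the common regions the counts were 15 and 17, with 13 kept, and with the mean of the peaks in a region they were 13 and 16, with 9 kept. At the start site of Ifit2, whose product binds viral RNA, the percentile was 74.8 in Control against 79.8 in IFNγ, and 52.9 in PJ34 against 96.1 in IFNγ+PJ34. Zbp1, a sensor of left-handed nucleic acids, stood at 91.4 in Control against 98.6 in IFNγ, and 83.2 in PJ34 against 98.4 in IFNγ+PJ34. Rsad2, which encodes viperin, stood at 81.2 in Control against 86.8 in IFNγ, and 71.6 in PJ34 against 89.2 in IFNγ+PJ34. At all 3 genes the PJ34 list was the lowest of the 4, and at Zbp1 and Rsad2 the IFNγ and IFNγ+PJ34 lists were close. A distal Samhd1 region with the element shown above was kept, with 26.9 in Control against 71.8 in IFNγ, and 25.3 in PJ34 against 77.3 in IFNγ+PJ34.

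Near the interferon regulatory factors, rises were more frequent with PJ34 than without. These genes had 3 of 25 regions that rose without PJ34 and 10 that rose with it, with medians of -0.845 and 7.52 points. Ranked among the common regions the counts were 7 and 15. Of the 10, 8 lay nearest to Irf2, a repressor of IFN-responsive genes, and 4 of these 8 fell without PJ34. In the Irf2 intron region with the element shown above the percentile was 70.6 in Control against 69.8 in IFNγ, and 78.2 in PJ34 against 92.6 in IFNγ+PJ34. Irf8, a factor that macrophages need to develop, had 3 regions that rose without PJ34, and 2 of them were lost. The kept one stood at 80.6 in Control against 95.7 in IFNγ, and 82.3 in PJ34 against 94.2 in IFNγ+PJ34.

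Near the feedback inhibitors of the pathway, several rises were reversed. Of 20 regions 6 rose without PJ34, and of these 4 were reversed, nearest to Socs1, Socs3, Pias1 and Usp18, while 1 near Ptpn2 was kept and 1 near Socs3 was lost. Of all rises 31.2% were reversed, and the count here was 4 of 8 when ranked by fold enrichment, 3 of 8 among the common regions and 3 of 4 with the mean of peaks. SOCS1 and SOCS3 block JAK activity, and USP18 limits type I interferon signalling. The reversed Socs3 region, 27.3 kb from the start site, stood at 59.7 in Control against 73.3 in IFNγ, and 80.0 in PJ34 against 8.96 in IFNγ+PJ34. The reversed Usp18 region stood at 26.9 in Control against 56.3 in IFNγ, and 65.3 in PJ34 against 21.9 in IFNγ+PJ34. All 4 lay away from the start sites, and Control was at 3.96 in those of Socs1 and Pias1, among the lowest scores of its list. The Socs1 start site did not take part, with 96.5 in Control against 99.96 in IFNγ, and 94.2 in PJ34 against 100.0 in IFNγ+PJ34.

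Near NF-κB factors and their inhibitors, 27 of 51 regions fell with PJ34, or 52.9% beside 31.1% of all common regions. Another 7 rose with PJ34, and 12 fell without it. The median was 0.412 points without PJ34 and -11.8 with it. Tnfaip3, which encodes the NF-κB inhibitor A20, had 16 of these regions, of which 12 fell with PJ34. Of 9 regions that rose without PJ34 in this list, 4 were kept, 2 of them in Nfkb1 introns, and 5 were reversed, 3 of them nearest to Tnfaip3. At the start site of Nfkbie, another inhibitor, the percentile was 92.8 in Control against 93.5 in IFNγ, and 96.3 in PJ34 against 76.1 in IFNγ+PJ34. Of the 9 start sites in this list only 1, that of Nfkbie, fell with PJ34, and the median of the 9 was -2.35 points. At the NF-κB target Tnf it was 97.1 in Control against 97.4 in IFNγ, and 98.0 in PJ34 against 82.9 in IFNγ+PJ34. The region next to Il1b, the gene of interleukin-1β, stood at 82.4 in Control against 74.5 in IFNγ, and 82.8 in PJ34 against 35.6 in IFNγ+PJ34. At Nfkbie, Tnf and Il1b only the IFNγ+PJ34 list was far from the other lists. In the list of cytokines and surface receptors, which holds Tnf and Il1b, 3 of 10 start sites fell with PJ34 and 3 rose.

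AP-1 and ATF factors were mixed. Of 40 regions 6 rose without PJ34, of which 2 were kept (both distal to Jun), 1 was lost at the Maff start site and 3 were reversed. The Fos start site stood at 93.5 in Control against 96.0 in IFNγ, and 94.4 in PJ34 against 75.3 in IFNγ+PJ34. Fosb, a related factor, stood at 74.0 in Control against 83.8 in IFNγ, and 90.4 in PJ34 against 56.5 in IFNγ+PJ34. The Maff start site, with the element shown above, stood at 89.1 in Control against 99.7 in IFNγ, and 95.8 in PJ34 against 92.4 in IFNγ+PJ34. Fos, Fosb and Fosl2 fell with PJ34 at the start site, while Jun stood at 91.7 in PJ34 and 98.5 in IFNγ+PJ34.

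Genes of antigen presentation divided by class. The MHC class I list, which holds B2m, Tap1 and proteasome genes, had 2 of 18 regions that rose without PJ34 and 2 with it, with medians of 2.11 and 1.66 points, and its start sites were already high, as at Tap1 with 93.6 in Control against 99.8 in IFNγ, and 93.7 in PJ34 against 99.7 in IFNγ+PJ34. In the MHC class II list, 2 of 14 regions rose and 3 fell without PJ34, and 3 rose and 7 fell with it, beside 31.1% of all regions that fell with PJ34. The 7 lay nearest to H2-Aa, H2-Ab1, H2-Eb1 and Cd74. The H2-Aa start site stood at 70.2 in Control against 69.8 in IFNγ, and 64.6 in PJ34 against 43.6 in IFNγ+PJ34. Ciita, the master activator of this class, had both regions of the list that rose without PJ34. Its start-site region (chr16:10486938-10490998) stood at 61.4 in Control against 84.4 in IFNγ, and 66.1 in PJ34 against 76.1 in IFNγ+PJ34, a rise of 23.0 points without PJ34 and a difference of 9.98 with it, just under the limit. The neighbouring intron region with the element shown above was kept, with 42.8 in Control against 77.0 in IFNγ, and 56.3 in PJ34 against 73.6 in IFNγ+PJ34. Another 2 of the 5 Ciita regions fell without PJ34. The intergenic one of these stood at 65.8 in Control against 4.55 in IFNγ, and 38.2 in PJ34 against 76.9 in IFNγ+PJ34. Relative to the common regions alone, the median of the class II list was 2.83 without and 0.389 with PJ34 in place of -3.32 and -7.67, so its direction over the whole list is not stable, while 6 of its regions still fell with PJ34.

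Effector genes of the activated macrophage gave further cases. Nos2, the inducible nitric oxide synthase, had 4 common regions, of which 1 was kept, 1 lost at the start site, 1 reversed and 1 rose with PJ34 alone. Its start site stood at 32.5 in Control against 69.3 in IFNγ, and 66.1 in PJ34 against 57.4 in IFNγ+PJ34. Acod1, which makes the antimicrobial metabolite itaconate, had a kept region 30.6 kb from the start site, at 73.7 in Control against 85.2 in IFNγ, and 68.6 in PJ34 against 86.8 in IFNγ+PJ34. Among cytokines and surface receptors 8 of 26 regions rose without PJ34, with 2 kept, 5 lost and 1 reversed. The 2 kept regions were the start site of Il18bp, a decoy for interleukin-18, and a region near the costimulatory gene Cd86. The start site of Cd274, which encodes PD-L1, stood at 89.3 in Control against 99.96 in IFNγ, and 91.5 in PJ34 against 99.8 in IFNγ+PJ34, which is counted as lost at a difference of 8.31 with PJ34.

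The genes of the inhibited enzymes and of macrophage identity moved in other ways. In the PARP family 4 of 31 regions rose without PJ34 and 3 of these were kept, 2 near Parp8 and 1 in Tnks. The Parp1 start site, the gene of the main target of PJ34, stood at 79.8 in Control against 69.8 in IFNγ, and 68.0 in PJ34 against 72.5 in IFNγ+PJ34. In the macrophage lineage list 34 of 82 regions fell without PJ34, which is 41.5% beside 27.4% of all regions, and 24 fell with it, 29.3% beside 31.1%. Mertk, a receptor for the uptake of dying cells, had 5 regions; 4 fell without PJ34, and all 5 rose with it. Its start site stood at 80.8 in Control against 44.0 in IFNγ, and 54.8 in PJ34 against 90.8 in IFNγ+PJ34. PJ34 was on the side of IFNγ and IFNγ+PJ34 on the side of Control, an order that the opposite movements largely set. Ribosomal protein genes, taken as genes outside the response, had 0 of 12 regions that rose without PJ34, and their start sites had medians of -0.873 and -5.88 points.

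**Figure D5:**
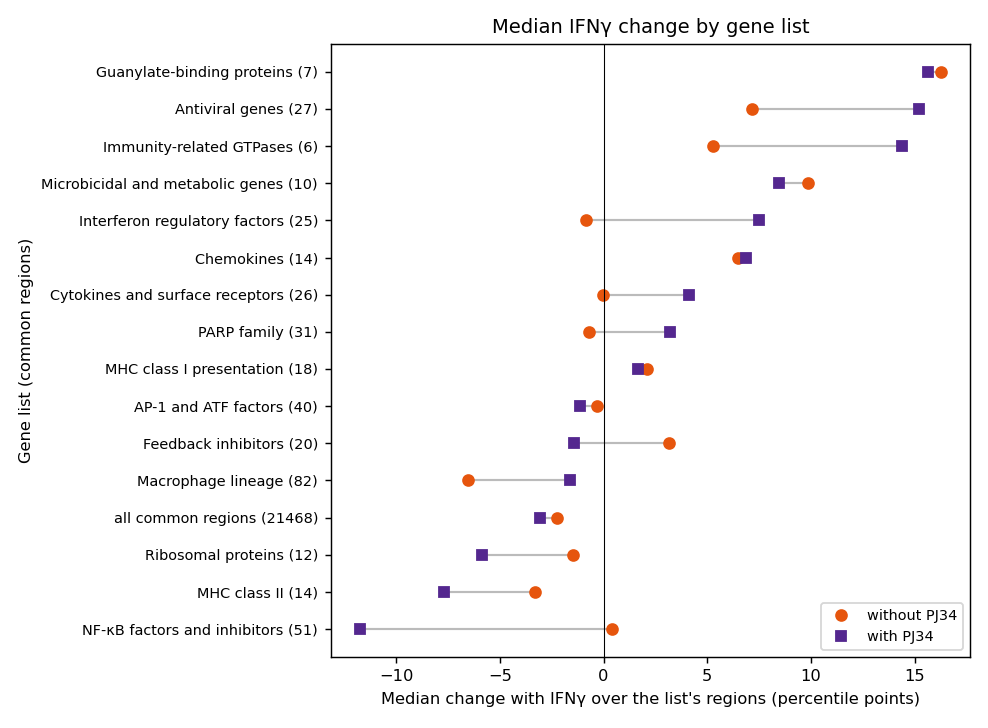
For each gene list reported here (y axis, number of common regions in brackets), the circle gives the median IFNγ minus Control difference and the square the median IFNγ+PJ34 minus PJ34 difference (x axis, percentile points). GBPs stand at 16.3 and 15.6, antiviral genes at 7.16 and 15.2, NF-κB genes at 0.412 and -11.8, and all common regions at -2.25 and -3.06.

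Grouped after these values were seen, the GBP, immunity-related GTPase, chemokine, antiviral and MHC lists held 86 regions, of which 26 rose without PJ34, with 18 kept, 6 lost and 2 reversed. The feedback, NF-κB and AP-1 lists held 111 regions, of which 21 rose, with 7 kept, 2 lost and 12 reversed. The 2 sets thus had 69.2% (48.2 to 85.7%) and 33.3% (14.6 to 57.0%) of their rises kept, beside 42.5% of all rises. These intervals overlap, and that of the second set holds the 42.5%. With PJ34, 35 of the 86 and 18 of the 111 regions rose. Regions of the same gene are not independent, and this grouping was not tested.

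The leading regions of each class lay mostly away from genes of the pathway. Kept regions were led, by the smaller of their 2 rises, by regions nearest to Hipk1, Klf6, Usp25, Rufy3, Chl1 and Lipg. The region in the first of these, an intron of the kinase gene Hipk1 (chr3:103770895-103774293), stood at 11.5 in Control against 81.2 in IFNγ, and 15.3 in PJ34 against 87.0 in IFNγ+PJ34. Lost regions were led by those nearest to Steap4, Dnm3, Angptl2, Slc30a5, Ppm1b and Ddhd1. Steap4, a metalloreductase gene, stood at 3.96 in Control against 73.0 in IFNγ, and 69.2 in PJ34 against 69.3 in IFNγ+PJ34, so that here only Control was low. Reversed regions were led by those nearest to Cdk14, Clec4n, Serpinb1b, Sgk3, Hmga1b and P2ry2. The Serpinb1b intron region with the element shown above stood at 49.1 in Control against 92.2 in IFNγ, and 77.9 in PJ34 against 3.47 in IFNγ+PJ34. These regions were ranked on the values given, which are a description of the extremes.

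Regions that rose with PJ34 alone were led by those nearest to Palld, Gyg, Nav2, Map3k5, Ctse and Pla2g4a. The Ctse start site, of the protease cathepsin E, stood at 62.7 in Control against 72.2 in IFNγ, and 15.3 in PJ34 against 89.9 in IFNγ+PJ34. All 6 were at 15.3 or less in PJ34, a low place that ranking on the rise with PJ34 largely sets. In Control 5 of them were at 40.2 or more. Regions that fell in both were led by Napa, Pkd1l1, 9130213A22Rik, Tprn, Apoc2 and Asap1; the Apoc2 intron region, at an apolipoprotein gene, stood at 67.7 in Control against 16.98 in IFNγ, and 56.3 in PJ34 against 8.96 in IFNγ+PJ34. Regions that fell without PJ34 and rose with it were led by Fgd4, Enox1, Gpr34, Nabp1, Ipcef1 and Pik3c3. The Fgd4 intron region stood at 88.5 in Control against 4.55 in IFNγ, and 0.856 in PJ34 against 74.9 in IFNγ+PJ34.

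For some genes several regions fell into 1 class and for others they did not, and the following genes were chosen after their values were seen. Ch25h, whose product makes the antiviral sterol 25-hydroxycholesterol, had 5 of its 7 regions kept, at rises of 13.5 to 29.6 points without and 16.3 to 51.8 with PJ34. Il15ra, the receptor chain that presents interleukin-15, had 3 of 4 kept, and the other, its start site, rose by 12.5 points without PJ34 and differed by 4.69 with it. All 4 Aqp9 regions were lost: the start site of this channel gene stood at 11.5 in Control against 61.3 in IFNγ, and 60.9 in PJ34 against 53.0 in IFNγ+PJ34. All 3 regions of Gca, which encodes the calcium-binding protein grancalcin, were reversed, with falls of 11.8 to 33.0 points under PJ34. Other genes were mixed. Of the 6 Tarm1 regions, all of which rose without PJ34, 2 were kept, 1 lost and 3 reversed. Of 24 Klf6 regions 7 rose without PJ34, with 4 kept and 3 reversed, and of 13 Hivep2 regions 8 rose, with 4 lost and 4 reversed. In the PJ34 list the Gca start site stood at 70.3, above both IFNγ and Control (59.3 and 40.2), while the 5 kept Ch25h regions ran from 32.9 to 61.9.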

How the data were processed

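H3K27ac ChIP-seq of BMDMs was deposited as 4 peak lists, 1 per condition. The authors aligned reads to mm10 with Bowtie, used MACS against input, at a relaxed p-value of 0.01, on the replicates one by one, and kept peaks found in both replicates, so pooling hides the spread between replicates. Per the deposited files each peak has a score (whole numbers from 10 to 1000), a fold enrichment (a ratio to the local background, as the authors' peak caller wrote it), and −log10 p and −log10 q values. No read counts were given.

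Peaks were merged at 1 bp overlap and ranked by the deposited score within each list, with tied scores at their average rank. Regions were assigned by the summit of their highest-ranked peak to the nearest start site of 21864 protein-coding genes of GENCODE M21, and motifs were searched in the mm10 reference within 250 bp of it. Python 3.11.15 with pandas 2.3.3, numpy 2.4.6, scipy 1.17.1 and pysam 0.24.0 was used, and the functions were tested on simulated lists. Groups came from the sample titles. The members, gene lists and alternatives were chosen with earlier results of these data known. Named genes were those of the 16 role lists and the nearest genes of the 6 leading regions of each class; others are said to have been chosen after their values were seen. The alternatives were other ranking columns and reference sets, summaries of several peaks, merging rules, a q filter, autosomes, thresholds and motif settings. One gene of the role lists, and the list that holds it, are not reported here.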

Additional observations from a re-analysis of the deposited data

Results flagged for a closer look

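Opposite movements were marked for a closer look, and none of these differences was tested, since each condition is a single list. In all, 802 regions rose with IFNγ without PJ34 and fell with it, and 1592 fell without PJ34 and rose with it. Near the feedback inhibitors 4 regions, nearest to Socs1, Socs3, Pias1 and Usp18, rose without PJ34 and fell with it. Near Mertk, 4 regions fell without PJ34 and rose with it.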

How the results depend on the processing

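No paired analysis was possible because the authors joined both replicates of a condition in its list, which also means that neither could be left out. In all, 70 alternative values were computed for 7 results. Of these, 38 lay within the 95% interval of the reported value and 32 outside it, and the kept share stayed above the share of all regions that rose with PJ34 in every setting run. Merging at 200 bp overlap, autosomes alone and ranking by −log10 p, the last added after seeing the data, left all 7 results within their intervals. Ranked by fold enrichment, 14.5% of regions rose, 37.0% of these were kept (20.6% of all regions rose with PJ34) and 30.4% lost. Ranked among the common regions, the correlation was 0.0425, 22.4% rose, 40.2% were kept (26.7% of all) and 28.8% lost. Falls were kept at 26.0%, below the 31.8% of all regions that fell with PJ34, and 27.4% of kept regions had a GAS element. With the mean of the peaks in a region, 15.0% rose, 34.7% of these were reversed (37.8% of all regions fell with PJ34), 39.2% of falls were kept, and 27.5% of kept regions had a GAS element. With exactly 1 peak in each list, 10.9% rose, 39.1% were kept (16.7% of all) and 34.8% reversed. Falls were kept at 38.2%, beside 33.2% of all regions that fell with PJ34. With q under 0.01 the correlation was 0.0409, 11.0% rose, and 36.5% of falls were kept (33.0% of all). At 5 points 19.5% rose, 16.7% of these were lost and 40.2% reversed, 44.4% of falls were kept (43.8% of all), and 27.6% of kept regions had a GAS element. At 20 points 5.40% rose, 35.5% were kept (10.6% of all), 45.9% lost and 18.5% reversed, and 19.7% of falls were kept. A GAS element was found in 8.88% of kept regions within 100 bp of the summit (5.12% of all) and in 7.23% as TTCCNGGAA (2.08% of all). The causes were not tested. Across the rankings by fold enrichment, −log10 p, among common regions and by the mean of peaks, some list medians kept their sign. They stayed above 0 in both responses for GBPs, immunity-related GTPases, chemokines, antiviral and MHC class I genes. With PJ34 they stayed below 0 for NF-κB factors, feedback inhibitors, macrophage lineage and ribosomal protein genes. So did the median of all common regions with PJ34, from -2.06 among the common regions to -4.39 with the mean of peaks. The NF-κB medians lay below it in each ranking, and the feedback medians above it except with the mean of peaks (-7.99). Other list medians changed sign with PJ34, from 8.45 as reported to -0.968 with the mean of peaks for microbicidal and metabolic genes, and from -1.15 to 0.476 by fold enrichment for AP-1 factors. Without PJ34, medians just below 0 turned positive in some rankings for cytokines (up to 1.49), AP-1 factors (1.15) and ribosomal protein genes (up to 0.747).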
